A study of Homo sapiens with 5 samples.

Results

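The 7 translation factor genes EIF4G1, EIF4G2, EIF4G3, EIF4A1, EIF4A2, EEF1A1 and EEF2 were examined in a map of RNA bound by the splicing factor SRSF9. Their members are all rows of the deposited peak table that share a nucleotide with 1 of 7 hg19 intervals. These are chr3:184032000-184054000 for EIF4G1, chr11:10818000-10831000 for EIF4G2, chr1:21132000-21504000 for EIF4G3, chr17:7476000-7483000 for EIF4A1, chr3:186501000-186508000 for EIF4A2, chr6:74225000-74231000 for EEF1A1 and chr19:3976000-3986000 for EEF2. They held 160 of the 80514 peaks. The genes were chosen by where the table has peaks, so the presence of peaks in them is a description and was not tested. Of the 160 peaks, 159 lay wholly inside an interval and 1, in EIF4A2, ran 37 nt past the upper edge. The nearest peak outside an interval lay 1241 nt above that of EIF4G1, and the first peak inside lay 159 nt from the lower edge of EIF4A1.

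SRSF9 binding was mapped by eCLIP, in which RNA crosslinked to a protein is fragmented, pulled down with it, recovered from a membrane and sequenced. The cells were HEK 293T, an established human embryonic kidney line. The study has 2 libraries from cells overexpressing SRSF9 and ADAR2 together and 2 from cells overexpressing SRSF9 only, and asks how SRSF9 represses editing at ADAR2 targets. SRSF9 was overexpressed in both conditions, so neither shows SRSF9 at the level of untreated cells. ADAR2 is an RNA editing enzyme that deaminates adenosine to inosine where RNA is paired. The labels list an antibody to SRSF9, whereas the extraction protocol describes beads coupled for MYC. One input library, from cells with both proteins, has no values of its own in the table and was not analysed here. The labels do not say whether replicate libraries were made from separate cultures, so tests over libraries measure only the spread between them, which may be technical.

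Each row of the table has a position, a class and, for the condition or conditions where the peak was found, a log2 ratio per library made by the authors. The denominator of the ratio is not named, and read depth is unknown. The libraries of a condition carry no replicate number and are called first and second in column order. The second SRSF9-only library stood apart, with a median ratio of 0.24 over the whole table against 1.07 in the first. Some of the results that rest on the second SRSF9-only library, but not all, are also given without it.

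Initiation of translation on most mRNAs begins when the eIF4F complex binds the 5′ cap. In it a scaffold of the eIF4G family joins the cap-binding protein eIF4E to the DEAD-box RNA helicase eIF4A, which unwinds structure ahead of the small ribosomal subunit. During elongation eEF1A brings aminoacyl-tRNA to the ribosome, and eEF2 moves the ribosome along by a codon. The mRNAs of these factors are abundant in growing cells. SRSF9, a serine/arginine-rich protein, binds pre-mRNA and mRNA and takes part in the choice of splice sites.

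Peaks found in both conditions made up a larger share in these genes than in the table as a whole. Of the 160 peaks, 114 were classed as with ADAR2 only, 14 as without ADAR2 only and 32 as shared. The class with ADAR2 only took 71.3% (95% Wilson interval 63.8 to 77.7), beside a background of 89.4% over all peaks. The class without ADAR2 only took 8.75% (5.28 to 14.2), beside 5.92%. Shared peaks took 20.0% (14.5 to 26.9), beside 4.72%. The intervals cover counting error over peaks alone, and peaks of one gene share a transcript. There is 1 peak set per condition, so no spread between libraries can be given for these shares, and no test was made. The genes were chosen by where the table has peaks, and the presence of peaks sets the class. The shares of these genes and of the table are therefore not a like comparison.

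Counted by condition, the 7 genes held 146 peaks with ADAR2 and 46 without it, a ratio of 3.17, where the whole table has 75751 and 8565, a ratio of 8.84. Of the peaks without ADAR2, 69.6% were also found with it, beside 44.4% over the table. Of the peaks with ADAR2, 21.9% were also found without it, beside 5.02%. The choice of genes limits these comparisons in the same way as the class shares. Most of the 14 peaks found only without ADAR2 lay near peaks of the other condition. A peak with ADAR2 lay within 1 kb of 12 of the 14, or 85.7%, and of 63.2% of such peaks in the whole table. The genes were chosen by where the table has peaks, and outside EIF4G3 they held 1.83 peaks with ADAR2 per kb. At that density a peak within 1 kb is nearly given by the choice of genes, so these shares are not a like comparison.

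**Figure D1:**
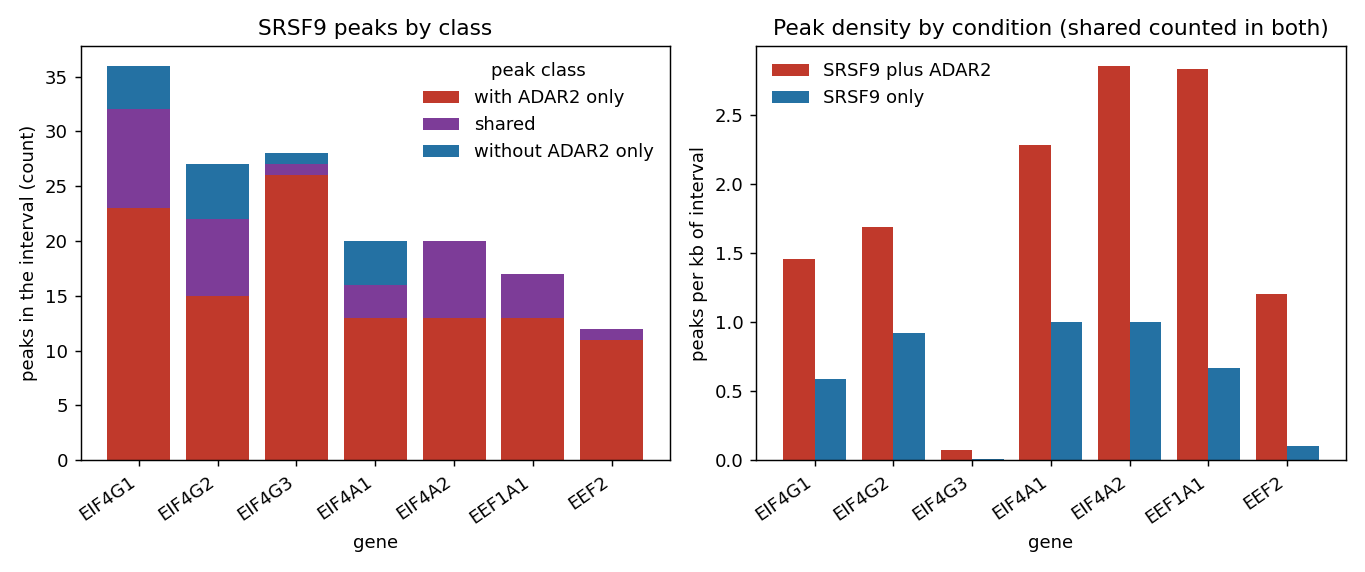
Left, the number of SRSF9 peaks in each gene's interval by class, stacked; right, peaks per kb of interval in cells with SRSF9 plus ADAR2 (red) and SRSF9 only (blue), with shared peaks counted in both. EIF4G1 held the most peaks, 36, and EIF4G3 the fewest per kb, while EIF4A2, EEF1A1 and EEF2 held none found only without ADAR2.

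The genes differed in how their peaks fell into classes. EIF4G1, the main eIF4G scaffold, held 36 peaks, of which 23 were with ADAR2 only, 4 without only and 9 shared. EIF4G2, which encodes an eIF4G relative that lacks the eIF4E-binding site, held 15, 5 and 7 of these classes. EIF4A1, which encodes the more abundant eIF4A helicase in most cells, held 13, 4 and 3. Its paralog EIF4A2 held 13 with ADAR2 only and 7 shared. EEF1A1 held 13 and 4, and EEF2 held 11 and 1. In the last 3 genes 0 peaks were found only without ADAR2, for which the Wilson upper bound is 16.1% of the 20 peaks of EIF4A2, 18.4% of the 17 of EEF1A1 and 24.2% of the 12 of EEF2. These bounds lie above the 5.92% of the whole table, so the count of 0 was not read as a lower share. They cover counting error over peaks alone and are not a test.

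EIF4G3, which encodes the other large eIF4G scaffold, held 26 peaks with ADAR2 only, 1 without only and 1 shared. Peaks with ADAR2 only made up 92.9% (77.4 to 98.02) of its peaks, an interval that holds the 89.4% of the whole table. Its interval is 372 kb long and held 0.075 peaks per kb. The others ranged between 1.20 per kb in EEF2 and 2.86 per kb in both EIF4A1 and EIF4A2. Peaks covered 0.32% of the EIF4G3 interval, against 13.2% of that of EIF4A2 and 12.5% of that of EEF1A1. Without EIF4G3 the 6 genes held 132 peaks, of which 23.5% (17.1 to 31.4) were shared.

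Peaks were not evenly placed along the long and the elongation factor genes. The direction of each gene was taken from RefSeq's promoter table, since the peak table has no strand. In EIF4G3, 17 of 28 peaks lay in the tenth of the interval at its 5′ side, or 60.7%. In EEF1A1, 14 of 17 peaks lay on the 5′ side of the midpoint, and the last 2636 nt at the 3′ side held no peak. EEF2 had the opposite layout, with 8 of 12 peaks on the 3′ side of the midpoint and no peak in the 3064 nt at the 5′ side. In EIF4A1 and EIF4G2, 10 of 20 and 13 of 27 peaks lay on the 5′ side. These fractions were looked at after the peaks were seen, and the intervals are wider than the genes by an amount not measured here. Exons, introns and UTRs were not assigned, because the annotation at hand is on GRCh38.

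**Figure D2:**
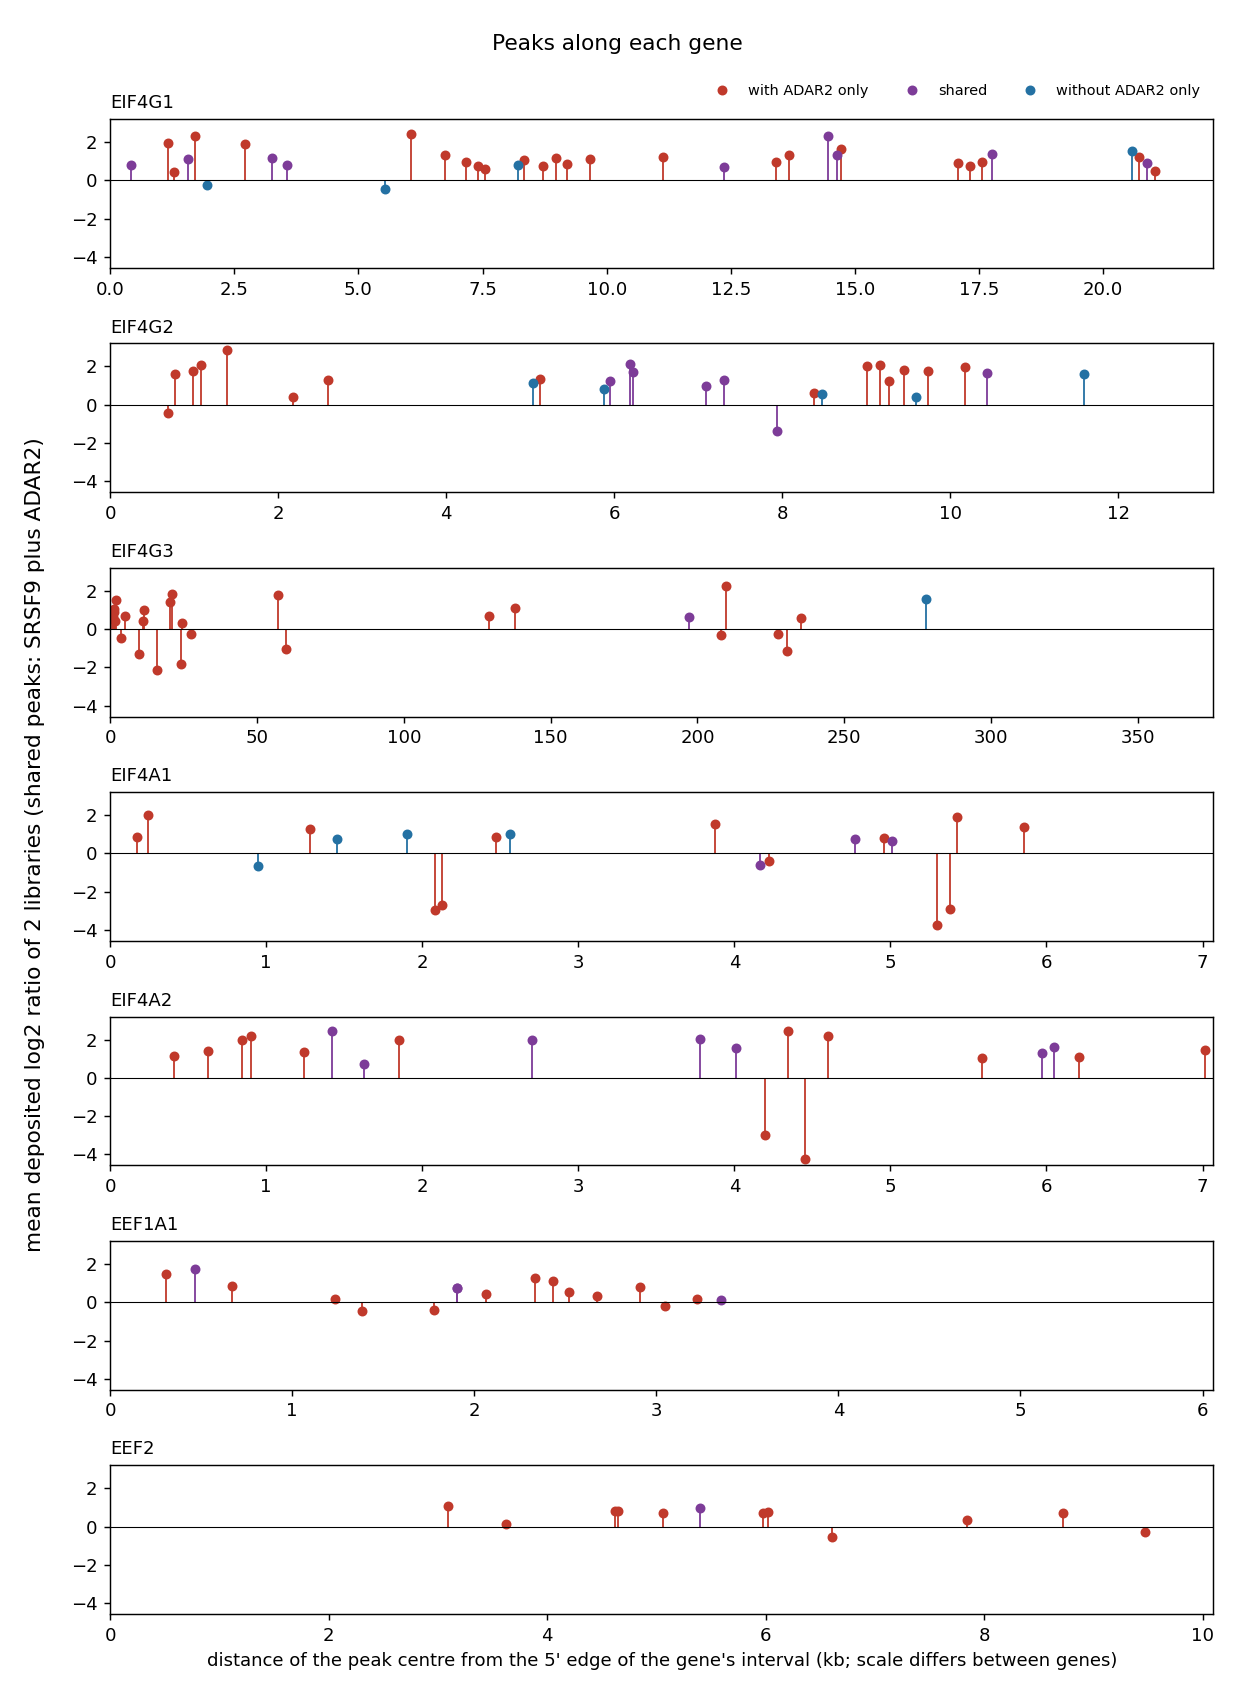
Each peak of the 7 genes by the distance of its centre from the 5′ edge of the interval (x axis, kb, with its own scale per gene) and its mean log2 ratio over 2 libraries (y axis), coloured by class. Shared peaks are drawn at their mean with ADAR2. The lowest points are in EIF4A1 and EIF4A2, and 17 of the 28 EIF4G3 peaks lie in the tenth at the 5′ side.

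Ratios with ADAR2 were highest in EIF4G2 and EIF4A2 in both libraries, while the lowest gene differed between libraries. In the first and the second library with ADAR2, the median ratio was 1.65 and 1.53 over 22 peaks in EIF4G2, and 1.77 and 1.15 over 20 peaks in EIF4A2. It was 1.44 and 0.76 over 32 peaks in EIF4G1 and 1.22 and 0.34 over 16 peaks in EIF4A1. EIF4G3 had the lowest median of the first library and EIF4A1 that of the second. The medians were 0.51 and 0.61 over 27 peaks in EIF4G3, 0.73 and 0.39 over 17 peaks in EEF1A1, and 0.98 and 0.46 over 12 peaks in EEF2. Over the whole table these medians were 1.16 and 1.06. EIF4G2 and EIF4A2 thus lay above the table in both libraries, and EIF4G3, EEF1A1 and EEF2 below it in both. The libraries disagreed on the side for EIF4G1 and EIF4A1, which were above it in the first and below it in the second.

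EIF4G2 and EIF4A2 also led in the share of high peaks, whereas EEF2 was last. A log2 ratio above 1 in both libraries with ADAR2 was found for 52 of the 146 peaks, 35.6%, beside 43.0% over the table. EIF4G2 held 16 such peaks of 22 and EIF4A2 13 of 20. EIF4G1 held 9 of 32, EIF4G3 6 of 27, EIF4A1 4 of 16 and EEF1A1 4 of 17, and EEF2 held 0 of 12. Without ADAR2, 2 of the 46 peaks passed this threshold, 4.35%, beside 9.22% over the table. This number rests on the second library: 28 peaks were above 1 in the first SRSF9-only library alone and 2 in the second alone.

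The first library with ADAR2 read higher than the second in most of these genes. It was the higher one in 111 of 146 peaks, or 76.0%, beside 61.1% over the table. The gap had a median of 0.33 in the 7 genes and 0.05 in the table. All 12 peaks of EEF2, 15 of 16 in EIF4A1 and 29 of 32 in EIF4G1 were higher in the first library, against 12 of 27 in EIF4G3. Without ADAR2 the first library was higher in 44 of 46 peaks, with a median gap of 0.77, beside 0.84 in the table. With ADAR2 the median gap differed by gene, from -0.076 in EIF4G3 to 0.65 in EIF4A1. Small differences between these genes therefore depend on the library in which they are read.

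**Figure D3:**
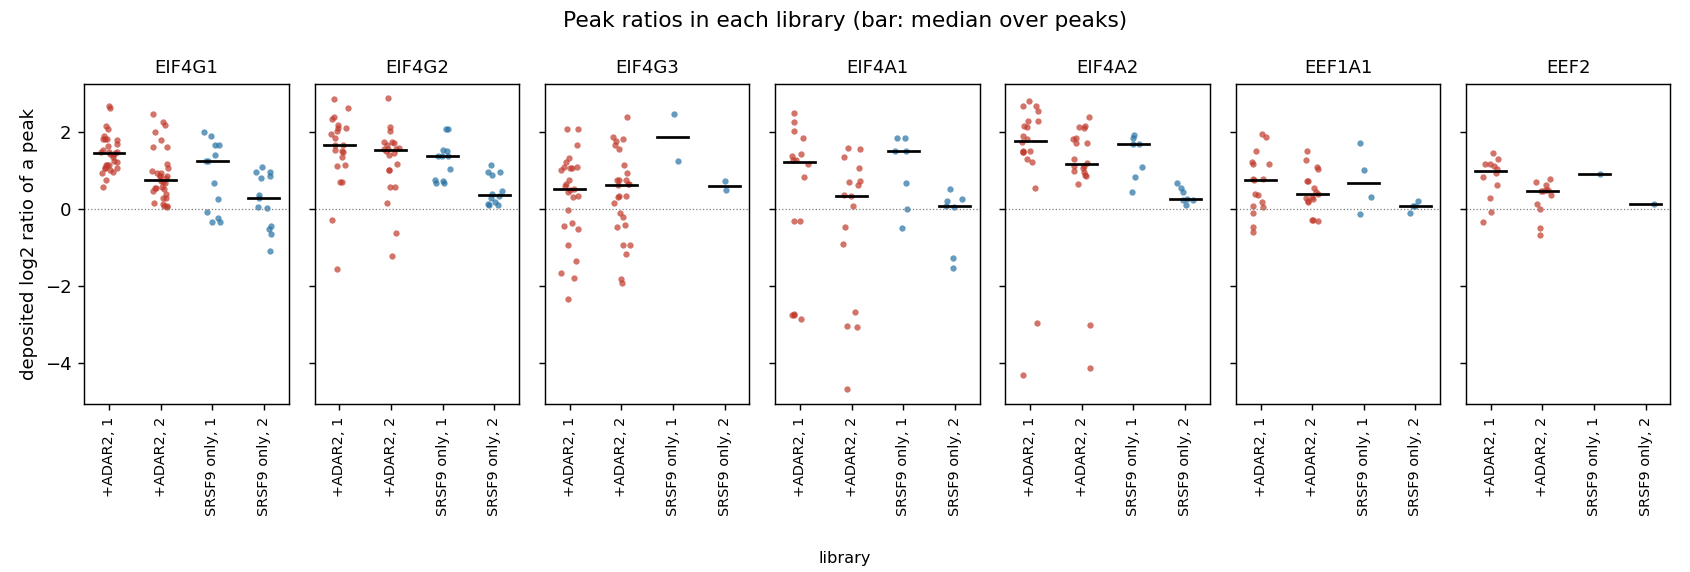
The deposited log2 ratio (y axis) of every peak of each gene in each library (x axis), with the 2 libraries with SRSF9 plus ADAR2 (red) left of the 2 with SRSF9 only (blue), and a bar at the median. In every gene the second SRSF9-only library has the lowest median but for EIF4G3, which has 2 peaks there.

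The peak with the highest mean ratio in each gene was found with ADAR2, which in EIF4G3 rests on the second SRSF9-only library. In EIF4G2 it lay at chr11:10829605-10829609, with 2.84 and 2.87 in the libraries with ADAR2. In EIF4G1 it lay at chr3:184038033-184038072, with 2.61 and 2.26. In EIF4A1 it lay at chr17:7476224-7476260, with 2.48 and 1.55, and in EIF4G3 at chr1:21294364-21294392, with 2.07 and 2.38. All 4 were classed as with ADAR2 only, and the libraries lay within 1 of each other at each. The EIF4G3 peak found only without ADAR2, at chr1:21226234-21226274, had 2.47 and 0.72 in the SRSF9-only libraries. Its 2.47 was above every EIF4G3 ratio with ADAR2, of which the highest was 2.38. Read without the second SRSF9-only library, that peak would be the highest of EIF4G3.

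In EIF4A2 and EEF1A1 the highest peak was a shared one. At chr3:186502396-186502447 in EIF4A2 the ratio was 2.53 and 2.38 with ADAR2, against 1.92 and 0.66 without it. The highest peak of EIF4A2 with ADAR2 only, at chr3:186505314-186505378, had 2.79 and 2.09. At chr6:74230490-74230574 in EEF1A1 the ratio was 1.94 and 1.496 with ADAR2, against 1.70 and 0.20 without it. The highest peak of EEF1A1 with ADAR2 only was its nearest neighbour on the 5′ side, at chr6:74230636-74230750, with 1.85 and 1.07. The highest peak of EEF2, at chr19:3982880-3982936, had 1.44 and 0.76 with ADAR2, below the highest peak of every other gene.

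Among peaks found only without ADAR2, the highest lay in EIF4G2, EIF4G3, EIF4G1 and EIF4A1. In EIF4G2 it lay at chr11:10819396-10819416, with 2.07 and 1.14 in the SRSF9-only libraries. In EIF4G3 the single such peak lay at chr1:21226234-21226274, with 2.47 and 0.72, and the nearest peak with ADAR2 was 42350 nt away. In EIF4G1 it lay at chr3:184052567-184052601, with 1.98 and 1.08, and a peak with ADAR2 lay 106 nt away. In EIF4A1 it lay at chr17:7477864-7477945, with 1.83 and 0.21. Only the peaks in EIF4G1 and EIF4G2 exceeded 1 in both libraries.

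Ratios below 0 with ADAR2 took a larger share in the 7 genes together than in the table, and the share differed by gene. They were found in both libraries for 24 of the 146 peaks with ADAR2, 16.4%, beside 7.45% over the table, and for 7 of the 46 without it, 15.2%, beside 25.7%. EIF4G3 held 9 of the 24, EIF4A1 6, EEF1A1 3, and EIF4G2, EIF4A2 and EEF2 2 each, while EIF4G1 held 0 of 32. Without EIF4G3 it was 15 of 119, 12.6%. Peaks below 0 without ADAR2 were found in EIF4G1, with 4 of 13, in EIF4A1, with 2 of 7, and in EEF1A1, with 1 of 4.

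The lowest ratios lay in the helicase genes. In EIF4A2 the peak at chr3:186505441-186505458 had -4.31 and -4.14 with ADAR2, and that at chr3:186505171-186505217 had -2.97 and -3.03. Between them lay the gene's highest peak with ADAR2 only. In EIF4A1 the lowest peak, at chr17:7481298-7481303, had -2.76 and -4.68, and its neighbour at chr17:7481358-7481409 had -2.76 and -3.05. A pair at chr17:7478078-7478089 and chr17:7478099-7478155 had -2.86 and -3.07, and -2.73 and -2.67. The third pair of EIF4A1, from 7480131 to 7480236, was milder, at -0.31 and -0.92, and -0.31 and -0.47. The lowest peak of EIF4A1 and its neighbour have an identical value in the first library with ADAR2, as do the peaks of the third pair. Within each of these pairs the peaks are not separate measurements in that library. In EIF4G3 the lowest peak had -2.35 and -1.94, whereas the lowest of EEF1A1 had -0.59 and -0.30 and that of EEF2 -0.35 and -0.68.

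RefSeq's gene table, on GRCh38.p14, lists small nucleolar RNA genes inside several of these genes. It lists SNORA48, SNORA67 and SNORD10 within EIF4A1, and SNORA4, SNORA63, SNORA63B, SNORA81 and SNORD2 within EIF4A2. EIF4G1, EIF4G2 and EEF2 hold 1 each, SNORD66, SNORD97 and SNORD37. EEF1A1 and EIF4G3 hold 0. Whether the peaks below 0 lie in these RNAs was not tested, since the table's positions are on hg19. RefSeq also lists 50 pseudogenes named for EEF1A1, 13 for EIF4A1 and 5 for EIF4A2. EIF4A1 and EIF4A2 are close paralogs, and the sources used here do not give how reads matching several copies were placed, so values in these 3 genes are uncertain to that extent.

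In regions found in both conditions, 1 region of these genes rose with ADAR2 and 1 fell. The regions were compared with limma over all 3645 shared regions of the table, of which 31 lie in the 7 genes. Of all these regions, 18.5% were called higher with ADAR2 and 2.41% lower, at a Benjamini-Hochberg adjusted p under 0.05, and in the 7 genes 1 of 31 was called in each direction, or 3.23%. The median difference was 0.55 in the 31 regions and 0.62 in all regions. It was above 0 in 25 of the 31, 80.6%, beside 73.6% over the table. Both libraries with ADAR2 exceeded both without it in 16 of the 31, 51.6%, beside 49.9%, so these shares were near the background. Subtracting each library's median brought the median difference of all regions to 0.028. On that scale 12.6% of all regions were called higher with ADAR2 and 10.9% lower, and in the 7 genes 1 was still called in each direction. Of the 31 differences 14 were then above 0, 45.2% beside 51.1% over the table, and 8 regions had both libraries with ADAR2 above both without it, beside 33.8% over the table.

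**Figure D4:**
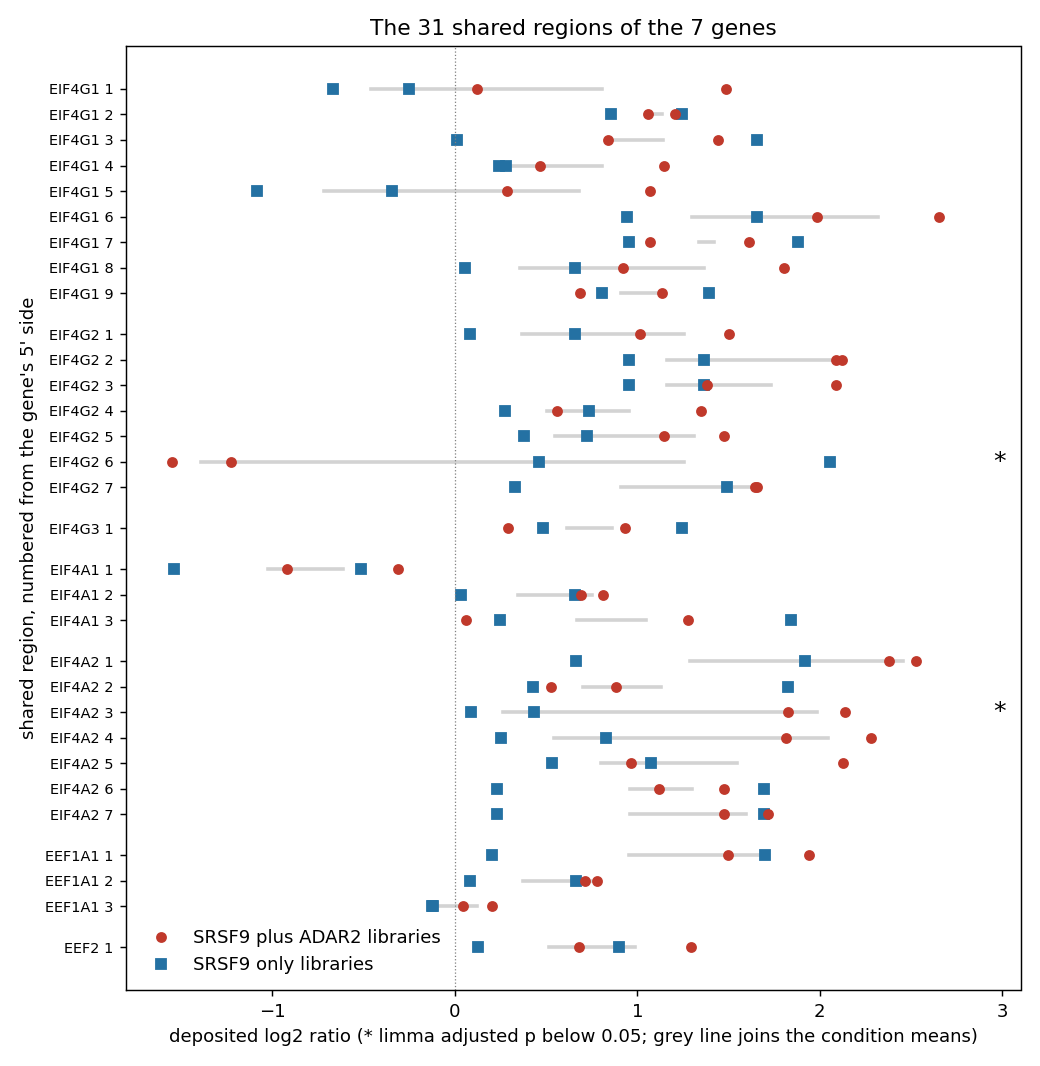
The deposited log2 ratio (x axis) of the 31 shared regions (rows, numbered from the 5′ side of each gene) in the libraries with SRSF9 plus ADAR2 (red circles) and with SRSF9 only (blue squares); a grey line joins the means and a star marks a limma adjusted p below 0.05. The starred regions are 1 in EIF4G2, where both libraries with ADAR2 are below 0 and both without it above, and 1 in EIF4A2, where both libraries with ADAR2 lie above both without it.

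The region that rose lies in EIF4A2, at chr3:186503675-186503736. Its ratio was 2.14 and 1.83 in the libraries with ADAR2, against 0.44 and 0.09 in those without it. The groups did not overlap, with means of 1.98 ± 0.22 with ADAR2 and 0.26 ± 0.25 without it (SD, n = 2 each). The difference was 1.72 ± 0.59 (SE), with a limma adjusted p of 0.024, and 1.13 with an adjusted p of 0.048 after centring. As deposited, limma gave the same SE to all regions of the table, so the spread of this region alone does not enter that p. After centring the SE differed between regions and was 0.40 here. The call was lost in every fit without 1 of the 4 libraries, with differences between 1.55 and 1.89 and adjusted p-values between 0.066 and 0.363.

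Its neighbour in EIF4A2 missed the threshold, narrowly as deposited and by more after centring. At chr3:186504758-186504799 the ratio was 2.28 and 1.82 with ADAR2, against 0.83 and 0.26 without it, and again the groups did not overlap. It differed by 1.51 ± 0.59 (SE, limma adjusted p = 0.051). After centring the difference was 0.915 (limma adjusted p = 0.103). Among regions above 0 in every library the limma adjusted p was 0.175. Without 1 library the difference ranged from 1.22 to 1.79, and it was 1.22 without the second SRSF9-only library. This region was picked after its values were seen. Of the 7 shared regions of EIF4A2, 6 had a higher mean with ADAR2, and 5 after centring. The exception before centring, at chr3:186502602-186502647, had 0.53 and 0.88 with ADAR2, against 1.83 and 0.43 without it.

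The region that fell lies in EIF4G2, at chr11:10823029-10823087. Its ratio was -1.55 and -1.23 with ADAR2, against 2.06 and 0.46 without it. Both libraries with ADAR2 were below 0 and both without it above, with means of -1.39 ± 0.23 with ADAR2 and 1.26 ± 1.13 without it (SD, n = 2 each). The difference of -2.65 ± 0.59 (SE), with a limma adjusted p of 0.00023, ranks 121 by size among the 3645 regions, and after centring it was -3.24 with an adjusted p of 5.2e-05. Without the first SRSF9-only library it was -1.85 (limma adjusted p = 0.068) and without the second -3.45 (limma adjusted p = 0.087). Without the first library with ADAR2 the call was lost too, at -2.48 (limma adjusted p = 0.079), while without the second it was kept, at -2.81 (limma adjusted p = 0.023). None of the other 6 shared regions of EIF4G2 passed. Their differences ran between 0.45 and 0.95 as deposited, and between -0.14 and 0.36 after centring, with 2 of the 6 below 0. The highest of them, at chr11:10824788-10824841, had 2.09 and 2.12 with ADAR2, against 1.37 and 0.95 without it.

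No shared region passed in the other 5 genes. In EIF4G1 the largest difference, at chr3:184044310-184044404, had 1.07 and 0.29 with ADAR2, against -0.34 and -1.09 without it, a difference of 1.39 ± 0.59 (SE, limma adjusted p = 0.075). The groups did not overlap there and lay on opposite sides of 0. The lowest in EIF4G1, at chr3:184052856-184052887, had 1.13 and 0.69 with ADAR2, against 1.40 and 0.81 without it, a difference of -0.19. After centring, the largest and the lowest difference were 0.80 and -0.78 (limma adjusted p = 0.158 and 0.162). The highest shared region of EIF4G1, at chr3:184046433-184046490, had 2.65 and 1.99 with ADAR2, against 1.66 and 0.94 without it, without overlap and with a difference of 1.02 (limma adjusted p = 0.213).

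In EIF4A1 all 3 differences were within 1 SE as deposited. The region at chr17:7480131-7480200 was below 0 in all libraries, with -0.31 and -0.92 with ADAR2, against -0.51 and -1.54 without it. The region at chr17:7480748-7480804 had 0.81 and 0.69 with ADAR2, against 0.66 and 0.03 without it. At chr17:7481002-7481017 the ratio was 1.28 and 0.06 with ADAR2, against 1.84 and 0.25 without it, the only mean in EIF4A1 that was lower with ADAR2 as deposited. After centring all 3 differences were below 0. That at chr17:7481002-7481017 was then -0.97 ± 0.45 (SE, limma adjusted p = 0.123), and the others were -0.18 each.

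The elongation factor genes had 4 shared regions. All 4 differences were above 0 as deposited, as were 73.6% over the table, and 3 of the 4 were below 0 after centring. In EEF1A1 the region nearest the 5′ side is the highest peak given above, with a difference of 0.77 ± 0.59 (SE, limma adjusted p = 0.369). The region at chr6:74229060-74229128 is listed in 2 rows that differ in the first SRSF9-only value alone, and their mean was used. It had 0.78 and 0.71 with ADAR2, against 0.66 and 0.08 without it. The region at chr6:74227636-74227657 had 0.04 and 0.20 with ADAR2, against -0.13 and -0.12 without it, a difference of 0.24. The single region of EEF2, at chr19:3980583-3980626, had 1.29 and 0.68 with ADAR2, against 0.90 and 0.13 without it (difference 0.47, limma adjusted p = 0.609). The single region of EIF4G3, at chr1:21306833-21306846, had 0.29 and 0.94 with ADAR2, against 1.24 and 0.48 without it (difference -0.25, limma adjusted p = 0.806). In both the groups overlapped. As deposited, with an SE of 0.59, differences of this size cannot be resolved. After centring the difference was -0.84 ± 0.43 in EIF4G3 (SE, limma adjusted p = 0.158). In EEF2 it was then -0.12 ± 0.40 (SE, limma adjusted p = 0.862).

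Shared peaks were wider than the others in these genes as in the table. Their median width was 52 nt, against 33 nt for peaks with ADAR2 only and 33.5 nt for peaks without ADAR2 only, where the table has 51, 34 and 32 nt. The widest peaks, of 139 nt, lay in EIF4G1 and EIF4G3, and the narrowest, of 3 nt, in EIF4G2.

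Repeated values limit how many separate measurements the table holds. Neighbouring peaks often carried 1 value: of 34 pairs within 100 nt of each other in the same condition, 15 had an identical value in at least 1 library, beside 51.3% of such pairs in the table. In EIF4G2 the shared regions at chr11:10824759-10824785 and chr11:10824788-10824841 have the same values in both SRSF9-only libraries, and so are not separate measurements there. In EIF4A2 the shared regions at chr3:186506971-186506975 and chr3:186506992-186507102 do likewise. Values on the steps that are most common in the table took a smaller share in the 7 genes together. Of the 146 ratios in the first library with ADAR2, 11.0% equalled 1 of its 10 commonest values to 3 decimals, beside 45.9% over the table, and in the second it was 10.3%, beside 47.9%. EIF4G3 had the most in the first library, 7 of 27, and EIF4A1, EIF4A2 and EEF2 had 0. In the first SRSF9-only library it was 15 of 46, 32.6%, beside 54.9%, and in the second 4.35%, beside 16.4%. EIF4G1 went the other way in the first SRSF9-only library, with 10 of 13, or 76.9%.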

How the data were processed

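The deposited file is 1 table of peaks with 2 libraries per condition, on hg19 per the submitters' processing notes. Its values are log2 ratios that the authors made. They were read as log2 from their spacing, which is that of ratios of small whole numbers. The sources used here do not give the aligner, peak caller, thresholds or denominator, and a pair of zeros marks a peak as absent. Of the 5 samples, the input library was not used. The members and lists were chosen with earlier results of these data known. All 7 genes are named, with their highest peak per class, their lowest peak, and the shared regions that passed or, failing that, had the largest and smallest difference. A few more shared regions were named after their values were seen. Rows with the same coordinates were averaged to 3645 shared regions and compared with limma 3.58.1 in R 4.3.3 (SRSF9 plus ADAR2 minus SRSF9 only, Benjamini-Hochberg over all regions, threshold 0.05, no pseudocount), which was tested on simulated data. Shares have 95% Wilson intervals (scipy 1.17.1). Alternatives covered centring, repeated rows, the variance prior, low ratios, interval edges, merging within 100 nt and leaving out each library. Other translation factor genes were not analysed here, since no hg19 annotation was at hand, and no peak sequence was read for the same reason.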

Additional observations from a re-analysis of the deposited data

How the results depend on the processing

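Over the whole table limma called 675 shared regions higher and 88 lower with ADAR2. Without 1 library the numbers ranged from 0 to 199 and from 0 to 22. They were 0 without either SRSF9-only library, where 1340 and 65 regions (without the first) and 687 and 364 (without the second) had an unadjusted p under 0.05. Among regions above 0 in every library there were 77 and 5, where fewer regions were tested. After centring 396 were lower. In the 7 genes, 1 region was called in each direction. With repeated rows kept 2 were higher, the second being the EIF4A2 region at chr3:186504758-186504799. The EIF4G2 region called lower is below 0 with ADAR2, so keeping only regions above 0 in every library removes it. The loss of that call under this filter was thus fixed in advance. Among regions above 0 in every library limma called 0 in each direction (2 and 0 at an unadjusted p under 0.05). Without 1 library it called 0 higher and 0 to 1 lower, with 0 to 9 and 1 at an unadjusted p under 0.05. The robust prior changed neither call. The median difference of the 31 regions was 0.55, -0.0445 after centring and 0.16 to 0.93 without 1 library.

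Of the 20 shared regions named, 12 changed the sign of their difference under some setting. None of these 12 had passed. After centring EEF1A1 chr6:74227636-74227657 was at -0.35 and chr6:74229060-74229128 at -0.22, EIF4A2 chr3:186506971-186506975 at -0.25, EIF4G2 chr11:10824759-10824785 at -0.016, EEF2 at -0.12 and EIF4A1 chr17:7480131-7480200 and chr17:7480748-7480804 at -0.18 each. Without 1 library, EIF4A1 chr17:7480131-7480200 ranged from -0.10 to 0.92, EIF4A1 chr17:7481002-7481017 from -1.17 to 0.42, EIF4A2 chr3:186502602-186502647 from -1.12 to 0.28, chr3:186506971-186506975 from -0.39 to 1.07 and chr3:186506992-186507102 from -0.096 to 1.37, EIF4G1 chr3:184052856-184052887 from -0.48 to 0.10 and EIF4G3 from -0.63 to 0.13. The cause was not tested.

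Peaks with ratios above 1 in both of their libraries were also counted alone, and their classes set again. There were then 52 with ADAR2 only, 2 without only and 0 shared. The last 2 numbers depend on the second SRSF9-only library, where 2 of 46 peaks were above 1. The shared EIF4A2 peak at chr3:186502396-186502447 missed the threshold there alone, with 0.66 against 1.92, 2.53 and 2.38 elsewhere. That at chr3:186503675-186503736 was below 1 in both SRSF9-only libraries, at 0.44 and 0.09. Classes were not set again without the second SRSF9-only library. In the first library alone 93 peaks with ADAR2 and 28 without it were above 1. The median ratio with ADAR2, 0.95 as the mean of 2 library medians, was -0.16 when each library was centred on its median over all its peaks. No paired analysis was possible because the columns carry no replicate number. Depth is unknown, so no interval on a single ratio was computed.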
